A study of Mus musculus with 4 samples.

Results

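The collagen genes and the enzymes, chaperone and helper proteins that mature collagen were measured in the gonadal white adipose tissue (WAT) of mice with and without FSP27. FSP27 is a lipid droplet protein of adipocytes that is encoded by Cidec. Members were the probe sets annotated with a single symbol that is either a collagen name or on a fixed list of processing genes. A collagen name is Col, a number, the letter a and a number. The list named prolyl 4-hydroxylase alpha subunits, lysyl hydroxylases, lysyl oxidases, the collagen chaperone and propeptide processing helpers. It did not hold every gene of these families, and P3h1, P3h3 and Loxl4 were read among the related genes instead. This rule found 47 of the 12394 genes of the arrays, 36 of them collagens and 11 processing genes, read by 75 probe sets. Of 40 genes listed by name, 36 were found. Col8a2, Col27a1, P4ha3 and Loxl2 had no probe set of 1 symbol and were not analysed here, and 11 further collagens came in through the rule.

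Both groups were male C57BL/6J mice, 3 months old, either Fsp27 knockout or wild-type. RNA of 5 mice per genotype was combined into 1 pool, and each pool was hybridised in duplicate to Affymetrix arrays, giving 2 FSP27-deficient and 2 wild-type arrays. The duplicates are repeat measurements of 1 pool, so every p-value reflects technical spread and says nothing of the variation from mouse to mouse. An exact permutation test of 2 versus 2 arrays cannot give a two-sided p below 0.333. In whole tissue, fewer cells of a type and less RNA per cell cannot be told apart.

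Collagens are trimers of alpha chains wound into a triple helix. Inside the cell, prolyl and lysyl hydroxylases modify the chains and the chaperone HSP47 (Serpinh1) holds the helix. Outside the cell, proteinases helped by the enhancer proteins Pcolce and Pcolce2 remove the propeptides of fibrillar collagens, and lysyl oxidases crosslink the fibrils. In adipose tissue, fibrillar collagens form the interstitial matrix, type IV collagen lies in the basement membrane around each adipocyte, and type VI collagen forms beaded filaments close to it.

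Cidec itself was lower in FSP27-deficient WAT. Its signals were 8564 and 8949 in FSP27-deficient WAT compared with 20491 and 18255 in wild-type WAT and its mean was 2.21-fold lower (log2 fold change -1.14 ± 0.15 SE, adjusted p = 0.00057 from limma). The position of this probe set relative to the deletion is not known from the labels or methods, so the level is no check of genotype on its own. Median signals of the arrays were 164.8 to 192.8, and the log2 signals of duplicates differed over the tested genes with a standard deviation of 0.64 for FSP27-deficient and 0.46 for wild-type WAT.

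The mRNA levels of collagen genes were lower in FSP27-deficient WAT for 11 of 20 tested, and none was higher. Of these 20 collagens tested, 11 fell and 0 rose at an adjusted p under 0.05, and the falls ranged from 1.78-fold to 3.07-fold. Of the 11 processing genes tested, 3 fell, by 1.80-fold to 2.69-fold, and 0 rose. Together 14 of 31 members fell (45.2%), where 6.51% of all 8523 genes tested fell and 5.78% rose. The balance over all genes turned with the scaling, from 555 lower and 493 higher to 468 and 475 after quantile normalization and 408 and 460 after centring each array on its median, whereas 13 and 11 collagens were then lower and 0 higher. The median log2 fold change was -0.86 over the collagens, -0.56 over the processing genes and -0.08 over all genes tested. Levels are GCOS signals in linear units, a fold is the ratio of the mean signals, and a log2 fold change is FSP27-deficient minus wild-type on log2(signal + 16), which understates changes at low signals. At an unadjusted p under 0.05, 14 collagens and 7 processing genes were lower and 0 were higher, where 14.7% of all genes tested were lower and 10.6% higher. The calls need a spread that varies with the signal, since limma without that trend called 0 members, with 13 collagens and 4 processing genes lower and 1 collagen higher at an unadjusted p under 0.05. The test named in the methods, with Benjamini-Hochberg adjustment, also called 0, with 8 and 5 lower at an unadjusted p under 0.05.

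The study's fold criterion was read here as a ratio of at least about 1.4 with the duplicates of the genotypes apart. By it, 14 of 20 collagens and 7 of 11 processing genes tested were lower, and 1 tested collagen, Col4a3, was higher. Collagens left out by the signal filter are not in these counts, and more of them met it as higher than as lower (named below). By that criterion 19.7% of all genes tested were lower and 13.6% were higher. With both duplicates past the ratio, 11 collagens and 4 processing genes of those tested were lower and 1 collagen was higher. Of all genes tested, 9.64% were then lower and 7.03% higher. Both FSP27-deficient arrays lay below both wild-type arrays for 15 of 20 collagens and 8 of 11 processing genes, against 31.4% of all genes tested. The log2 fold change was below 0 for 17 collagens and 10 processing genes, and for 56.9% of all genes tested. The exceptions were Col12a1, Col4a3, Col4a6 and P4ha1, and the same genes were the exceptions after quantile normalization and after centring each array on its median. With these scalings the median over all genes tested moved from -0.08 to -0.01, and that of the collagens was -0.85 after quantile normalization and -0.79 after centring.

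**Figure D1:**
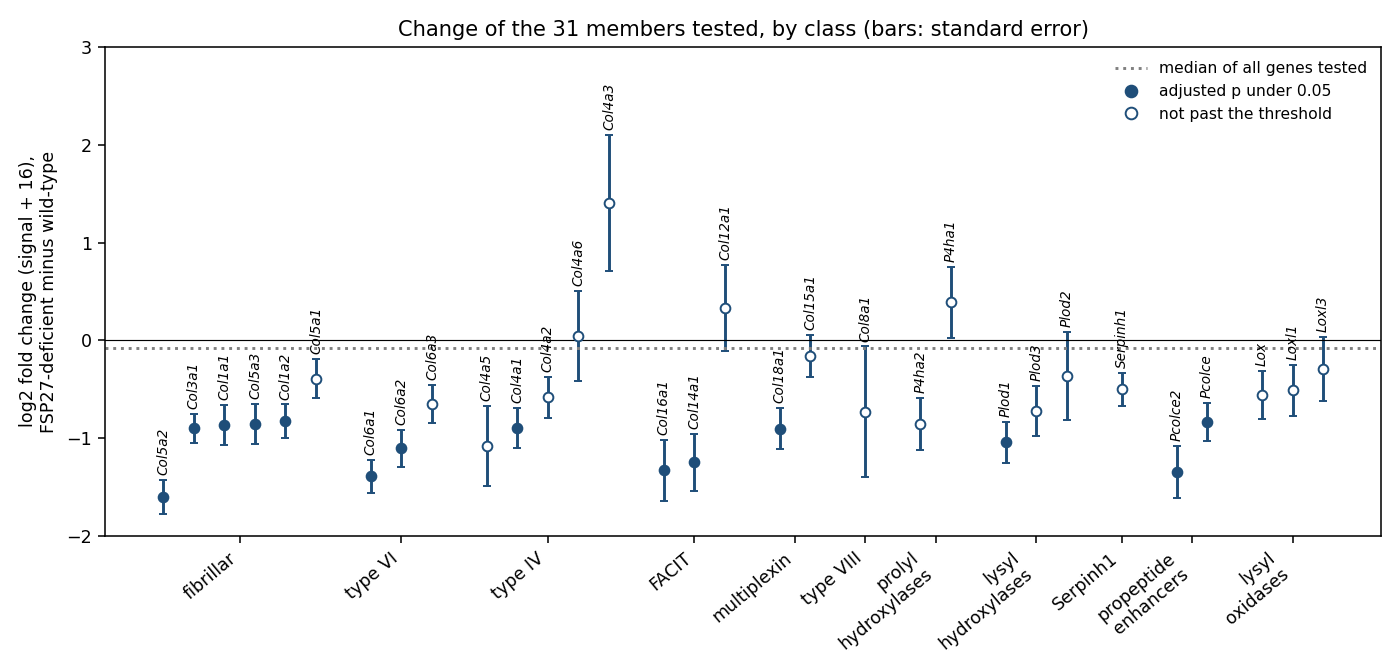
Log2 fold change of signal plus 16 (vertical axis, FSP27-deficient minus wild-type) for the 31 members tested, grouped by class on the horizontal axis. Bars are standard errors, filled points have an adjusted p under 0.05 from limma and the dotted line is the median of all genes tested. All 14 filled points lie below 0, and 4 of the open points lie above it.

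The fibrillar collagens assemble into the tensile fibrils of the interstitium. Of 6 tested, 5 fell, with a median log2 fold change of -0.86. Col5a2, a chain of the type V collagen that nucleates and limits the diameter of type I fibrils, gave signals of 1221 and 1326 in FSP27-deficient WAT compared with 3926 and 3882 in wild-type WAT. It fell 3.07-fold, the most of any collagen called (log2 fold change -1.60 ± 0.18 SE, adjusted p = 0.00016 from limma), and its duplicates differed far less than its genotypes. Col3a1, the single chain of type III collagen, gave 8990.3 and 8998 versus 16947 and 16636, a 1.87-fold fall (log2 fold change -0.90 ± 0.15 SE, adjusted p = 0.0024).

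Both chains of type I collagen, the main fibrillar collagen of connective tissue, fell, as read from their brightest probe sets. Col1a1 gave 1021 and 893 versus 1977 and 1557, a 1.85-fold fall (log2 fold change -0.87 ± 0.21 SE, adjusted p = 0.016). Col1a2 gave 3658 and 4142 compared with 7439.9 and 6432, a 1.78-fold fall (log2 fold change -0.83 ± 0.17 SE, adjusted p = 0.0078). The wild-type arrays were above the FSP27-deficient arrays for both chains without overlap.

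Of the other type V chains, Col5a3 gave 1611 and 1650.1 versus 3524 and 2491, a 1.84-fold fall (adjusted p = 0.016). Col5a1, the chain that pairs with Col5a2 in the common type V trimer, gave 1745 and 2262 compared with 2843 and 2400.4, with a log2 fold change equal to -0.39 and an adjusted p of 0.24. The duplicates of this brightest Col5a1 probe set were apart by a narrow margin. A second Col5a1 probe set gave 858 and 825 versus 1165 and 1548 (log2 fold change -0.67, adjusted p = 0.073 over all probe sets from limma). The third gave 320 and 328 versus 506 and 451 (log2 fold change -0.54, adjusted p = 0.22). Without wild-type replicate 1 the adjusted p from limma was 0.22 for Col1a1, 0.12 for Col1a2 and 0.26 for Col5a3, whereas Col3a1 and Col5a2 passed whichever 1 of the 4 arrays was left out. When all probe sets of a gene were averaged, the log2 fold change was -0.20 for Col5a3 (adjusted p = 0.69), -0.65 for Col1a1 (adjusted p = 0.055) and -1.08 for Col1a2 (adjusted p = 0.0055).

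Type VI collagen is a heterotrimer of chains from Col6a1, Col6a2 and Col6a3, and 2 of these 3 genes fell. Col6a1 gave 2947 and 2644 in FSP27-deficient WAT compared with 7898 and 6874 in wild-type WAT, a 2.64-fold fall (log2 fold change -1.40 ± 0.17 SE, adjusted p = 0.00031 from limma). Col6a2 gave 4021 and 2905 versus 7829 and 6950.4, a 2.13-fold fall (log2 fold change -1.11 ± 0.19 SE, adjusted p = 0.0028). Both calls held whichever 1 of the 4 arrays was left out. Col6a3 gave 2206 and 2809 compared with 3467 and 4441, with a log2 fold change equal to -0.65, and lay at the threshold (adjusted p = 0.05001). It passed after quantile normalization (0.030), with a pseudocount of 64 (0.045), with a mean signal of at least 200 (0.047) and without FSP27-deficient replicate 2 (0.016). It did not pass after centring (0.17), without FSP27-deficient replicate 1 (0.15), without wild-type replicate 1 (0.088) or with wild-type replicate 2 left out (0.40).

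**Figure D2:**
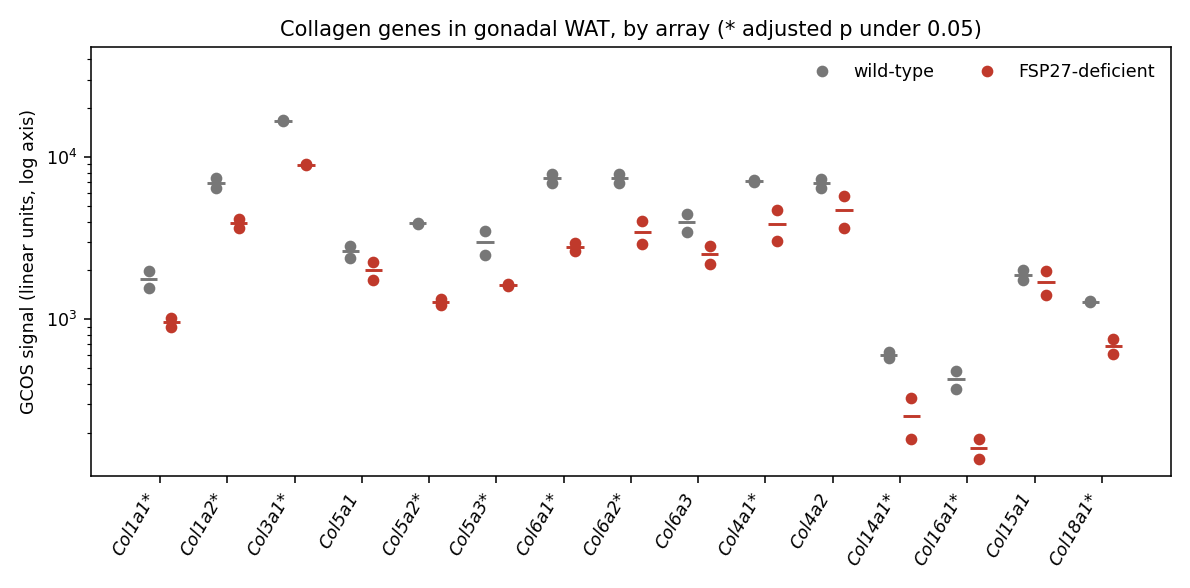
GCOS signal (vertical axis, linear units on a log axis) of 15 collagen genes in gonadal WAT, with each point 1 array and each bar the mean of 2 arrays. Asterisks mark an adjusted p under 0.05 from limma; for Col5a2 and Col6a1 the FSP27-deficient arrays lie 3.07-fold and 2.64-fold below the wild-type arrays on average, while Col15a1 overlaps.

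Sequence upstream of the gene start is shown for Col1a2, Col3a1, Col6a1 and Col6a2, which are among the members that fell. Whether they are regulated together was not tested. Col6a2 and Col6a1 lie next to each other on chromosome 10 with no protein-coding gene between them, and so do Col3a1 and Col5a2 on chromosome 1. The sequences are the last 150 bases before the start in RefSeq for mouse build GRCm38.p6, on the gene's strand. CCAAT and TATAAA on either strand, and GGGCGG (the core of a GC box) on either strand, are in capitals where present.

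Col1a2, chr6:4505468-4505617, plus strand: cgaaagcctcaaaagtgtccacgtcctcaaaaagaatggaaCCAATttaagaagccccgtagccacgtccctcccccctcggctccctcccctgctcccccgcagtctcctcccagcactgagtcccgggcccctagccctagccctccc
Col3a1, chr1:45311388-45311537, plus strand: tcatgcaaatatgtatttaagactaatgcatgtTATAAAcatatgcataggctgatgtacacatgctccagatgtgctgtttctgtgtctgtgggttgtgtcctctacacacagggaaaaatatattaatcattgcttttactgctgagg
Col6a1, chr10:76726045-76726194, minus strand: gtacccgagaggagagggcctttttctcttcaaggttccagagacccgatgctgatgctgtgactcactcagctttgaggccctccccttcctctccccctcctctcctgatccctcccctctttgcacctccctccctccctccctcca
Col6a2, chr10:76623631-76623780, minus strand: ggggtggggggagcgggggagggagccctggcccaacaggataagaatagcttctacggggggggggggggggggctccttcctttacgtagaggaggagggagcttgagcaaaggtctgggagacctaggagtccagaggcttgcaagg

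Within these windows the Col1a2 sequence holds 1 of the motifs searched, a CCAAT, the Col3a1 sequence holds 1, a TATAAA, and the windows of Col6a1 and Col6a2 hold 0. The windows of Col5a3 and Col16a1, which also fell, were read in the same way but are not shown. Each held a CCAAT, and that of Col5a3 also held GGGCGG on the opposite strand. Further upstream, within 250 bases of the start, Col1a2 and Col6a2 each held a GGGCGG. Of such 250-base stretches, 34 of the 47 members had an entry in RefSeq. CCAAT was in 12 of the 34 (35.3%) and in 33.8% of all 32851 promoters, TATAAA in 6 (17.6%) and in 12.4%, and GGGCGG in 21 (61.8%) and in 32.7%. Of the 11 members with an entry that fell, 5 held CCAAT, 2 held TATAAA and 8 held GGGCGG. Each member was read from its start furthest upstream, whereas the share over all promoters counts every start with an entry. The base composition of the promoters was not matched, and a match of letters is a description and not a site.

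Type IV collagen forms the network of basement membranes, and its genes lie in pairs. Of 5 type IV chains tested, 1 fell, Col4a1. It gave 4734 and 3049 in FSP27-deficient WAT compared with 7209 and 6971 in wild-type WAT, a 1.82-fold fall (log2 fold change -0.90 ± 0.21 SE, adjusted p = 0.013 from limma). Its adjusted p was 0.091 when wild-type replicate 1 was left out, 0.068 when wild-type replicate 2 was and 0.067 when its probe sets were averaged. Col4a2, its partner in the common type IV trimer, gave 5720.3 and 3666 versus 6469.8 and 7311, with a log2 fold change equal to -0.59 and an adjusted p of 0.094. Col4a2 passed without FSP27-deficient replicate 1 (log2 fold change -0.90, adjusted p = 0.0040) and after quantile normalization (0.043), but not without FSP27-deficient replicate 2 (log2 fold change -0.27, adjusted p = 0.34) or after centring (0.21). In both genes FSP27-deficient replicate 2 was the lowest of the 4 arrays. Col4a1 and Col4a2 start 21 bases apart on opposite strands of chromosome 8 (starts at 11312826 and 11312805, GRCm38.p6).

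The other type IV chains had low signals. Col4a5 gave 90.6 and 189 compared with 356 and 249 (log2 fold change -1.09, adjusted p = 0.12), with an adjusted p of 0.019 when FSP27-deficient replicate 2 was left out and of 0.24 to 0.58 when any other array was. Its neighbour Col4a6, which starts 1343 bases away on the opposite strand of chromosome X, gave 130.0 and 166 versus 148 and 136 (log2 fold change 0.05, adjusted p = 0.97). Col4a3 gave 169 and 153 compared with 37.0 and 68.1, the only tested collagen past the fold criterion in the higher direction (log2 fold change 1.40 ± 0.70 SE, adjusted p = 0.24). Its lower wild-type signal was below the lower quartile of that array.

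The FACIT collagens attach to the surface of fibrils, and 2 of 3 tested fell. Col14a1, which binds type I fibrils, gave 326 and 182 in FSP27-deficient WAT compared with 632 and 575 in wild-type WAT, a 2.38-fold fall (log2 fold change -1.25 ± 0.29 SE, adjusted p = 0.015 from limma). Col16a1 gave 183 and 137 versus 372 and 481, a 2.67-fold fall (log2 fold change -1.33 ± 0.31 SE, adjusted p = 0.015). Both genes had modest signals, and their adjusted p was 0.056 and 0.066 with no filter on low signals. Without wild-type replicate 1 it was 0.13 for Col14a1 and 0.080 for Col16a1, and without wild-type replicate 2 it was 0.079 and 0.23. Col12a1 gave 170.1 and 171 compared with 143 and 123 (adjusted p = 0.70).

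The multiplexins carry a C-terminal domain that is released by proteolysis and lie in basement membrane zones. Col18a1, the precursor of endostatin, gave 750.5 and 613 in FSP27-deficient WAT compared with 1270.2 and 1300.3 in wild-type WAT, a 1.89-fold fall (log2 fold change -0.91 ± 0.21 SE, adjusted p = 0.014 from limma). The adjusted p of Col18a1 was 0.10 without wild-type replicate 1 and 0.11 without wild-type replicate 2. Col15a1, the other multiplexin, gave 1978 and 1408 versus 1738 and 2009, and its genotypes overlapped (log2 fold change -0.16 ± 0.21 SE, adjusted p = 0.69). Col8a1 of the hexagonal network collagens also overlapped, at 153 and 41.1 compared with 173 and 124 (adjusted p = 0.55).

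The 16 collagens left out by the minimum mean signal of 100 were Col2a1, Col4a4, Col7a1, Col9a1, Col9a2, Col9a3, Col10a1, Col11a1, Col11a2, Col13a1, Col17a1, Col19a1, Col20a1, Col22a1, Col25a1 and Col26a1. These include the cartilage collagens of types II, IX, X and XI and the transmembrane collagens. Their signals ran from 3.07 to 156, and 6 of them were below the lower quartile of all 4 arrays. With no filter, the lowest adjusted p among them from limma was 0.32. By the fold criterion, which has no signal filter of its own here, Col2a1, Col9a3, Col10a1, Col13a1 and Col20a1 were higher and Col11a1 was lower. All of these had mean signals under the filter.

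Ratios between chains of 1 collagen type were compared within each array. They are log2 differences between 2 probe sets within an array, of which only the change between genotypes is read, and they are a description with no test. The Col5a2 to Col5a1 difference was -0.51 and -0.76 in FSP27-deficient WAT compared with 0.46 and 0.69 in wild-type WAT, a change of -1.21. Both genes were read here from their brightest probe sets. The dimmer ones changed by -1.27 for Col5a2 and by -0.67 and -0.54 for Col5a1, so that this contrast was smaller between them. The Col6a1 to Col6a3 difference was 0.42 and -0.09 versus 1.18 and 0.63, a change of -0.74, with the arrays of the genotypes apart. The Col6a2 to Col6a3 difference changed by -0.45 and overlapped. The Col1a2 to Col1a1 difference was 1.83 and 2.19 compared with 1.90 and 2.04, a change of 0.04 with overlapping arrays. From the second probe sets of both genes the same difference was 0.69 and 1.36 versus 1.90 and 1.93, a change of -0.89, so that the type I ratio depended on the probe sets read. The Col5a2 to Col5a3 difference changed by -0.75 and the Col4a2 to Col4a1 difference by 0.31, with the arrays of the genotypes apart in both. The arrays were also apart for Col4a6 to Col4a5 (1.13) and for Col6a2 to Col6a1, whose change of 0.29 was smaller than the gap between its FSP27-deficient duplicates (0.45 and 0.14). These ratios depended on the probe sets too. The dimmer Col4a6 probe set fell more (-1.68) than the dimmer Col4a5 one (-0.76), which turned the sign. The second Col4a1 probe set (-0.58) changed about as much as Col4a2 (-0.59). The dimmer Col6a2 (-0.67) and Col5a3 (0.45) probe sets instead widened the contrasts with Col6a1 and Col5a2.

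The 2 propeptide enhancers both fell. Pcolce2 gave 199.9 and 228 in FSP27-deficient WAT compared with 501 and 649 in wild-type WAT, a 2.69-fold fall (log2 fold change -1.35 ± 0.27 SE, adjusted p = 0.0062 from limma). Pcolce gave 805 and 903 versus 1474 and 1598, a 1.80-fold fall (log2 fold change -0.84 ± 0.20 SE, adjusted p = 0.016). These proteins speed the removal of the C-propeptide of fibrillar procollagens by Bmp1-like proteinases. The adjusted p of Pcolce2 was 0.12 without wild-type replicate 2. That of Pcolce was 0.097 when wild-type replicate 1 was left out, 0.15 when wild-type replicate 2 was and 0.059 after centring each array on its median.

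Of the 3 lysyl hydroxylases, which prepare lysines for crosslinks, Plod1 fell. It gave 626 and 575 in FSP27-deficient WAT compared with 1195 and 1319 in wild-type WAT, a 2.09-fold fall (log2 fold change -1.05 ± 0.21 SE, adjusted p = 0.0062 from limma). The adjusted p of Plod1 was 0.079 without wild-type replicate 2. Plod3 gave 921 and 656 compared with 1615 and 1033 (adjusted p = 0.093) and passed without FSP27-deficient replicate 1 (0.031), but not without FSP27-deficient replicate 2 (log2 fold change -0.48, 0.27), wild-type replicate 1 (-0.40, 0.61) or wild-type replicate 2 (-1.04, 0.062). Plod2 overlapped, with a log2 fold change equal to -0.37 and an adjusted p of 0.67.

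Of the prolyl 4-hydroxylase alpha subunits, which make the hydroxyproline that stabilises the helix, 0 of 2 passed the limma test and 1 had an unadjusted p under 0.05. P4ha2 gave 225 and 259 versus 425 and 479 (log2 fold change -0.86, adjusted p = 0.055) and passed without FSP27-deficient replicate 2 (0.046), with 0.11 to 0.35 for any other array left out. P4ha1 gave 495 and 219.6 compared with 226 and 274 (log2 fold change 0.39, adjusted p = 0.56). Its level was high on FSP27-deficient replicate 1 alone, and its log2 fold change was -0.17 without that array.

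Serpinh1 gave 5094 and 4711 versus 7509.8 and 6435, with a log2 fold change equal to -0.50 and an adjusted p of 0.072, and passed after quantile normalization (0.020) but not after centring (0.25). Of the 3 lysyl oxidases among the members, 0 passed the limma test and 1, Lox, had an unadjusted p under 0.05. Lox gave 601 and 493 compared with 669 and 978 (log2 fold change -0.56, adjusted p = 0.18). Loxl1 gave 1085 and 2040.3 versus 2310.2 and 1966 and overlapped, while its log2 fold change was -0.96 without FSP27-deficient replicate 2 (adjusted p = 0.0091) and -0.06 without FSP27-deficient replicate 1 (adjusted p = 0.90). Loxl3 gave 199 and 195 compared with 243 and 249 (adjusted p = 0.63). Loxl4, a lysyl oxidase outside the members, went the other way. It gave 116 and 174 versus 98.0 and 103 (log2 fold change 0.45, adjusted p = 0.67 from limma). By the fold criterion it was higher, at a ratio of 1.45. It is counted below with the other collagen folding and secretion genes.

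**Figure D3:**
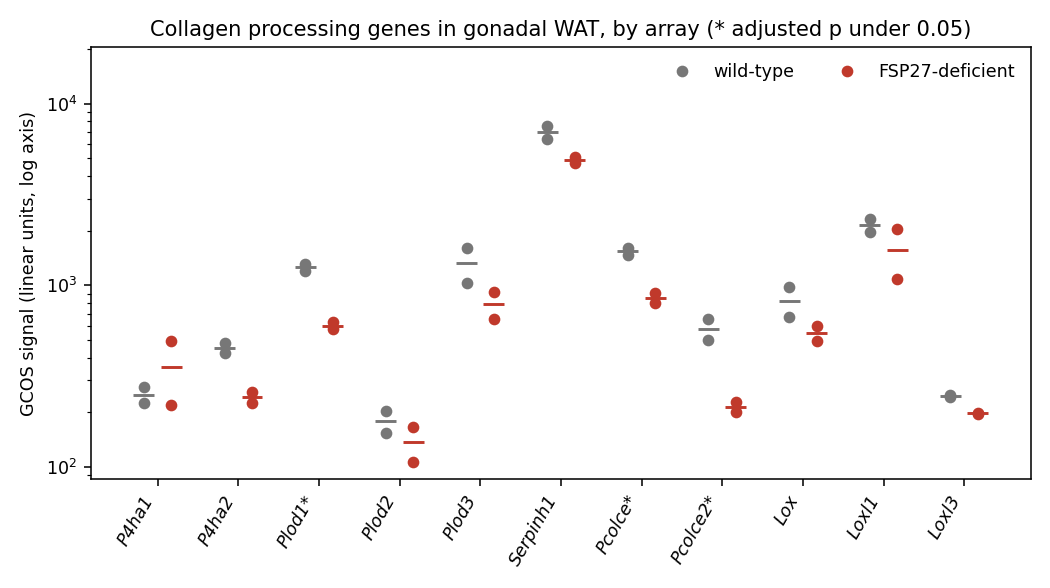
GCOS signal (vertical axis, linear units on a log axis) of the 11 collagen processing genes, with each point 1 array and each bar the mean of 2 arrays. Asterisks mark Plod1, Pcolce and Pcolce2 (adjusted p under 0.05 from limma), whose FSP27-deficient arrays lie below the wild-type arrays, while P4ha1, Plod2 and Loxl1 overlap.

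Several members were read by more than 1 probe set, which allows a second reading from the same arrays. Of 24 such members, 16 had log2 fold changes of 1 sign. The second Col3a1 probe set gave 429 and 376 in FSP27-deficient WAT compared with 1643 and 1304 in wild-type WAT (log2 fold change -1.83, adjusted p = 0.0003 over all probe sets from limma). The second Col1a2 probe set gave 895 and 1306 versus 2696 and 2777 (log2 fold change -1.33, adjusted p = 0.0019). The second Col5a2 probe set gave 146 and 371 compared with 559 and 622 (log2 fold change -1.27, adjusted p = 0.037). For Col14a1 it was 76.9 and 7.86 versus 317 and 302 (log2 fold change -2.79, adjusted p = 0.024), where the lowest signal was below the lower quartile of its array. The second Col6a2 and Serpinh1 probe sets were also lower (adjusted p of 0.048 and 0.032).

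The probe sets of other members differed. A second Lox probe set gave 288 and 394 compared with 732 and 725 (log2 fold change -1.08, adjusted p = 0.014), while the brightest did not pass and the dimmest, at 6.50 to 52.8, did not separate the genotypes. The second Col1a1 probe set gave a log2 fold change equal to -0.44 (adjusted p = 0.27), the second Col4a1 probe set -0.58 (0.14) and the second Col18a1 probe set -0.64 (0.10). The dimmer Col5a3 probe set gave 77.8 and 32.4 versus 22.8 and 46.5. The dimmer Col4a6 probe set gave 12.1 and 69.1 compared with 106 and 184, a log2 fold change of -1.68, unlike the brighter one. The part of the transcript that each probe set reads was not analysed here.

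**Figure D4:**
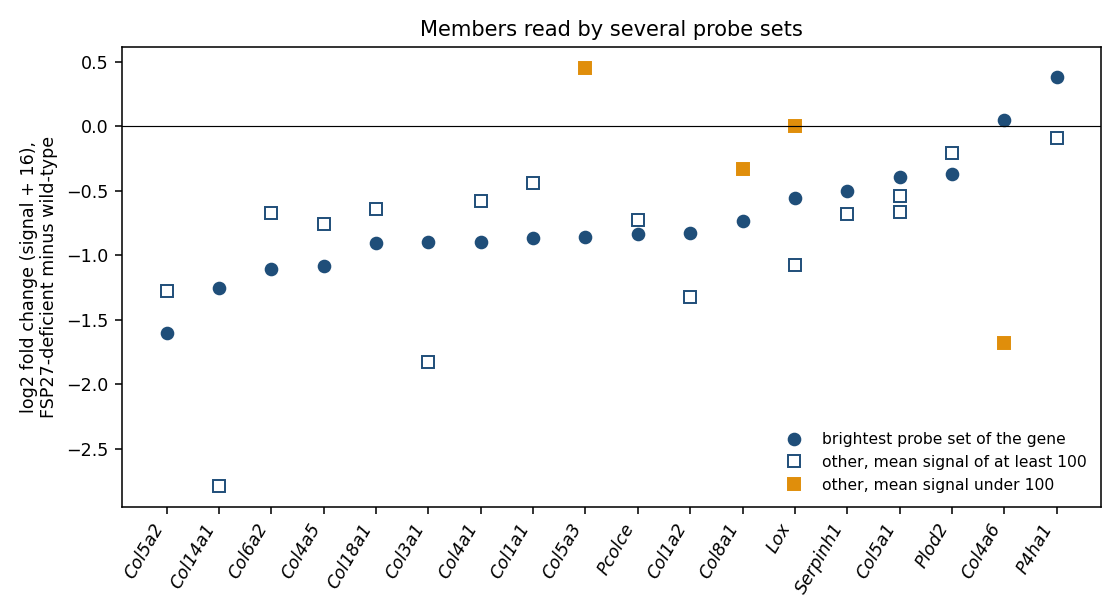
Log2 fold change of signal plus 16 (vertical axis, FSP27-deficient minus wild-type) for each probe set of the tested members read by several. Circles are the brightest probe set of a gene and squares the others, in orange where the mean signal was under 100; Col14a1 (-1.25 and -2.79) and Col4a6 (0.05 and -1.68) had probe sets far apart.

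Genes that act beside the members in collagen biology were read from lists of such genes. The counts in these lists stand beside 6.51% of all genes tested that fell and 5.78% that rose at an adjusted p under 0.05 from limma. At an unadjusted p under 0.05, 14.7% of all genes tested were lower and 10.6% higher. Of 11 other collagen folding and secretion genes tested, 2 fell and 0 rose at an adjusted p under 0.05 from limma, with a median log2 fold change of -0.48. P4hb, the beta subunit of prolyl 4-hydroxylase and a protein disulfide isomerase, gave 3062 and 3419 in FSP27-deficient WAT compared with 6239 and 8039 in wild-type WAT (log2 fold change -1.13 ± 0.18 SE, adjusted p = 0.0020). Its partner subunits P4ha1 and P4ha2 did not pass. Colgalt1, which adds galactose to hydroxylysine, had a log2 fold change equal to -0.69 (adjusted p = 0.040). Of the procollagen proteinases, 2 of the 4 with a probe set were tested and 0 passed the limma test, with 1 at an unadjusted p under 0.05.

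Among 14 collagen-binding proteoglycans and glycoproteins tested, 10 fell and 0 rose, at a median log2 fold change of -0.91. Fn1, the fibronectin on which collagen fibrils assemble, gave 687 and 677 versus 2830.4 and 3030.4 (log2 fold change -2.08 ± 0.19 SE, adjusted p = 5.5e-05 from limma). Thbs2, a matricellular glycoprotein, gave 41.9 and 146 compared with 607 and 473 (log2 fold change -2.51 ± 0.45 SE, adjusted p = 0.0037), and its lowest signal was below the lower quartile of that array, so that the size of its change is uncertain. Of 5 collagen receptors tested, 1 fell, Ddr2, a receptor tyrosine kinase for fibrillar collagen, which gave 196 and 123 versus 411 and 454 (adjusted p = 0.014).

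Of 8 collagen-degrading proteases tested, 3 fell and 0 rose, with a median log2 fold change of -0.82. Ctss, a lysosomal cysteine protease, had a log2 fold change equal to -1.20 (adjusted p = 0.0083 from limma), and Mmp14, a membrane-bound matrix metalloproteinase, one of -1.10 (adjusted p = 0.021). Of 9 genes of the profibrotic TGF-beta pathway tested, 5 fell and 0 rose, with a median of -1.05. Tgfbi, a secreted TGF-beta target that binds collagen, gave 378 and 467 compared with 1227 and 1385 (log2 fold change -1.60, adjusted p = 0.00074). Ccn2, a TGF-beta target, gave 119 and 336 versus 556 and 546 (log2 fold change -1.38, adjusted p = 0.034). The calls of these related genes and of the markers were not recomputed with arrays left out.

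The summed signals of fibroblast, macrophage, mesothelial, mural and endothelial markers were lower on both FSP27-deficient arrays than on both wild-type arrays, and those of adipocyte markers were higher. Sums follow the brightest genes of a list. Of the tested markers with lower sums, the mural Cnn1 (log2 fold change 0.78) and the endothelial Kdr (0.16) went the other way. Over all genes tested, 6.51% fell at an adjusted p under 0.05 from limma and 14.7% were lower at an unadjusted p under 0.05. Fibroblasts and preadipocytes are main producers of fibrillar collagen, and of 4 of their markers tested 0 passed the limma test and 2 had an unadjusted p under 0.05, at a median log2 fold change of -0.54. The summed signal of the 5 fibroblast and preadipocyte markers with a probe set was 1993 to 2004 on the FSP27-deficient arrays and 2808 to 3090 on the wild-type arrays. Of 6 macrophage markers tested 4 fell, with summed signals of 5213 to 6327 compared with 13018 to 14645, and Lyz2 fell most (log2 fold change -1.77, adjusted p = 0.00019). Of 6 mesothelial markers tested 3 fell, with sums of 1570 to 2013 versus 4486 to 4534. Of 7 mural and smooth muscle markers 3 fell, with sums of 8022 to 8952 compared with 14471 to 16479, and of 7 endothelial markers 1, Pecam1, fell, with sums of 4836 to 5218 versus 6307 to 7290.2. Of 6 adipocyte markers tested 1, Lep, fell and 0 rose, with a median of 0.19 and sums of 169162 to 182286 compared with 140580 to 161154. Adipocyte markers were read in both genotypes, and whether they tell white from brown fat was not tested. Of 2 epididymal epithelium markers tested 0 passed the limma test, at an unadjusted p under 0.05 also 0, with sums of 199.0 to 351 versus 285 to 710.4. None of the markers with a probe set was listed at 0, and the part of these cells in the collagen levels was not tested.

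**Figure D5:**
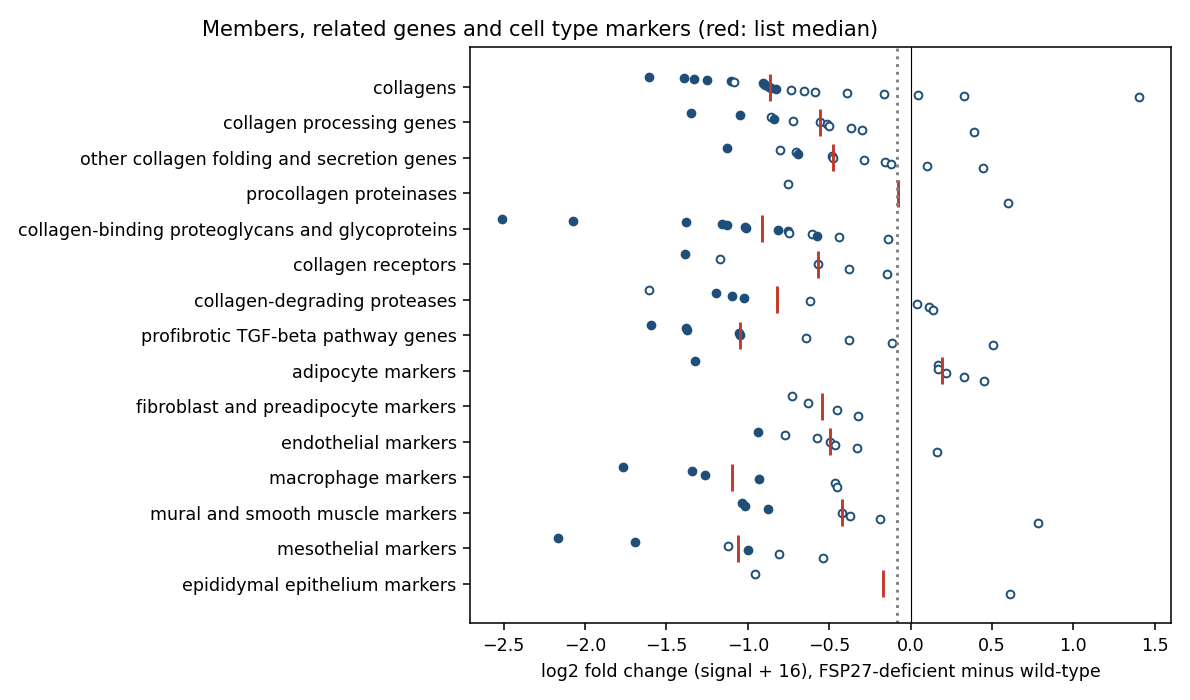
Log2 fold change of signal plus 16 (horizontal axis, FSP27-deficient minus wild-type) of each tested gene, for the members, 6 lists of related genes and 7 lists of cell type markers (rows). Filled points have an adjusted p under 0.05 from limma, red bars are list medians and the dotted line is the median of all genes tested; the list medians run from -1.10 for macrophage markers to 0.19 for adipocyte markers.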

How the data were processed

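The deposited intensities are linear signals that the authors obtained with GCOS, Affymetrix's operating software, for 22690 probe sets on each of 4 arrays, and their small number limits the precision. Neither the version of GCOS nor its scaling target is stated in the sources used here. The platform annotation names 21084 probe sets, of which 691 with several symbols were not used. Each gene was read from its brightest probe set. Genes whose mean signal reached 100, 8523 in number, entered limma 3.58.1 under R 4.3.3 as log2(signal + 16) (lmFit, eBayes with a trend on the signal; 2 residual and 12.1 total degrees of freedom) and Benjamini-Hochberg adjustment over all of them, at a threshold of 0.05. The steps were tested on simulated arrays whose spread followed the signal, which cannot test how the calls depend on that trend. The members and lists were chosen with earlier results of these data known. Values are given for every member called and its trimer partners, with the others by range and count. They are also given for Loxl4 and for up to 2 called genes per related list, those with the largest change. Alternatives were other pseudocounts, filters, scalings, probe set rules and spreads, the methods' test, a replicate block and each array left out, where a lone array is assumed to vary like the others. Duplicates with the same number did not deviate together (correlation 0.07), so that the numbers were not taken as pairs. PCR and protein data were not analysed here.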

Additional observations from a re-analysis of the deposited data

How the results depend on the processing

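Of the 11 collagens that fell, 4 (Col3a1, Col5a2, Col6a1 and Col6a2) were called without any 1 of the 4 arrays, and of the 3 processing genes 0 were. With an array left out, limma called 4 to 13 collagens and 0 to 5 processing genes lower, and 192 to 874 of all genes lower and 216 to 503 higher, where all 4 arrays gave 11, 3, 555 and 493. Collagen counts were 4 without wild-type replicate 1 and 7 without wild-type replicate 2, processing counts 0 without wild-type replicate 2 and 5 without FSP27-deficient replicate 2, and all-gene counts 192 and 216 without wild-type replicate 1, 200 and 270 without wild-type replicate 2 and 874 lower without FSP27-deficient replicate 2. Without the trend on the signal, 0 collagens and 0 processing genes were called, and 0 of all genes lower and 1 higher, of 1861 at an unadjusted p under 0.05; Cidec, at -1.14, then had an adjusted p of 0.090. The methods' t-test with Benjamini-Hochberg adjustment called 0 collagens, 0 processing genes and 0 of all genes in either direction, of 1309 at an unadjusted p under 0.05, and gave Cidec, at -1.14, an adjusted p of 0.24. The replicate block called 6 processing genes, 13 collagens and 831 of all genes lower, and reading every probe set on its own called 5, 11 and 608. The same-numbered arrays deviated together with a correlation of 0.07 only, so that the block is not a paired design. Requiring both duplicates to pass the fold criterion of about 1.4 left 4 of 7 processing genes and 11 of 14 collagens lower, and 9.64% of all genes. Signs turned for Col4a6 (-0.81 over the mean of probe sets, -0.11 without FSP27-deficient replicate 2, -0.0052 without wild-type replicate 2, up to 0.21 with an array left out), P4ha1 (-0.17 without FSP27-deficient replicate 1, to 0.95), Col15a1 (0.082 without FSP27-deficient replicate 2, down to -0.40) and Col8a1 (0.050 without FSP27-deficient replicate 2, down to -1.51), none of which was called. The cause of these differences was not tested.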
